A study of Mus musculus with 20 samples.

Results

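Bcl11b was listed in both Treg cells (regulatory T cells) and Tn cells at 829 regions that a direct comparison of Bcl11b with Foxp3 in WT Treg cells gave to Bcl11b alone. These regions, the members, were selected on the measured ChIP-seq calls, as regions with identical coordinates in the list common to WT Treg and WT Tn Bcl11b and in the list specific to Bcl11b when WT Treg Bcl11b was set against WT Treg Foxp3. The deposited lists hold 22081 distinct regions in all. Of these 829 regions, 279 were kept, that is, listed as common to WT and KIKO cells, and 550 were lost, that is, listed for WT only.

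The study profiled sorted mouse CD4+ T cells of C57BL/6 background, from draining lymph nodes and spleen, in 20 samples of 9 groups, of which 12 were immunoprecipitated and 8 were input. KIKO cells (2 Bcl11b samples) are Treg cells devoid of Foxp3, sorted as CD4+GFP+ from mice with the Foxp3-GFPKO genotype. Bcl11b-KO Treg cells (2 Foxp3 samples) are CD4+YFP+ cells of Bcl11b f/f Foxp3-IRES-YFP-Cre mice, in which the Cre is expressed from the Foxp3 locus and so acts in cells that have expressed Foxp3. WT Treg cells (3 Bcl11b and 2 Foxp3 samples) are CD4+YFP+ cells of Foxp3-IRES-YFP-Cre mice. Tn cells (3 Bcl11b samples) are labelled Bcl11b-sufficient and carry the same genotype and sort in the labels as the WT Treg cells. KIKO cells thus differ from WT cells in the reporter and in the Cre as well as in Foxp3, and these differences cannot be told apart. The labels used here give no age.

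Bcl11b is a zinc-finger transcription factor that T-cell precursors need to commit to the T lineage, that mature T cells go on expressing, and that recruits repressor complexes such as NuRD. Foxp3 is the forkhead factor that defines Treg cells, and much of its binding falls at sites that are already accessible in other CD4+ T cells.

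The files hold positions only, with no read count, score or value per replicate, so the depth is unknown and intervals (Wilson 95%) cover counting error only. A p-value here compares regions of lists, not cells, animals or replicates, and regions at 1 gene are not independent. The tests were Fisher's exact tests, two-sided, with Benjamini-Hochberg adjustment over 22 tests.

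Sequence at the members that overlap a promoter is shown first, because it is the sequence that Bcl11b regions shared by Treg and Tn cells without Foxp3 cover at gene starts. A promoter window here runs from 250 bases before to 50 after an annotated start (RefSeq, GRCm38.p6, which shares its coordinates with mm10). The 8 sequences are the parts of such windows that lie inside a member, in the direction of the gene, 5′ to 3′, with matches to 16 searched motifs in capitals. Of each class, 2 come from the widest members with at least 100 bp inside a window, and 2 from members that no Foxp3 list holds and whose centre is nearest a start, a choice made after the values were seen. The kept ones are Mov10 (an RNA helicase; chr3:104818256-104818377, minus strand), Idh3b (a subunit of mitochondrial isocitrate dehydrogenase; chr2:130284402-130284636, minus strand), Taf11 (a subunit of TFIID; chr17:27907695-27907885, minus strand) and Mrpl11 (a mitochondrial ribosomal protein; chr19:4962156-4962355, plus strand).
Mov10: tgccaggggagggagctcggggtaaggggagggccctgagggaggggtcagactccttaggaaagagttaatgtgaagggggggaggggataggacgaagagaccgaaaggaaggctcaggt
Idh3b: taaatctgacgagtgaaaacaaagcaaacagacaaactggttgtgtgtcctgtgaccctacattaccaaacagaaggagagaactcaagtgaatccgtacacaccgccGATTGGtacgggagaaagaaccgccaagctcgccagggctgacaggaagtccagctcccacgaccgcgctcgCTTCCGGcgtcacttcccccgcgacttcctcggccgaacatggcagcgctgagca
Taf11: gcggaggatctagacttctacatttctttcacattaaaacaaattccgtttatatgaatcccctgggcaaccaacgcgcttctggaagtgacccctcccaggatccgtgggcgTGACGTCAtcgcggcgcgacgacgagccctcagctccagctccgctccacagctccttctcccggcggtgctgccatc
Mrpl11: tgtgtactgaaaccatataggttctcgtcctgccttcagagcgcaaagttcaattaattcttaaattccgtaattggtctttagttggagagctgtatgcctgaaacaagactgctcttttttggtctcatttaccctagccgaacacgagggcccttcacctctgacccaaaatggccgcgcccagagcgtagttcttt
The lost ones are Sgk1 (a serum- and glucocorticoid-induced kinase; chr10:21994416-21994715), Zfp639 (a zinc-finger protein; chr3:32510342-32510523), Tmem63a (a membrane protein; chr1:180942413-180942567) and Spsb2 (an adaptor of a ubiquitin ligase; chr6:124808820-124808967), all on the plus strand.
Sgk1: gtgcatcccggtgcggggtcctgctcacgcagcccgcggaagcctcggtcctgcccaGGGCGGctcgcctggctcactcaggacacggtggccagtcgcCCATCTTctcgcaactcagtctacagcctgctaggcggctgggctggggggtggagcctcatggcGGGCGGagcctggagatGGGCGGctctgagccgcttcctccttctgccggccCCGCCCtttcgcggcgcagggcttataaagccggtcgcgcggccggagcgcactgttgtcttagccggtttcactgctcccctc
Zfp639: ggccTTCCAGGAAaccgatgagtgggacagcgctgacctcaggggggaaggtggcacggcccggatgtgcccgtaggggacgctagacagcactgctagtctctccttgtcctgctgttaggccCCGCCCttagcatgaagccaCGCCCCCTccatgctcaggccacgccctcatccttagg
Tmem63a: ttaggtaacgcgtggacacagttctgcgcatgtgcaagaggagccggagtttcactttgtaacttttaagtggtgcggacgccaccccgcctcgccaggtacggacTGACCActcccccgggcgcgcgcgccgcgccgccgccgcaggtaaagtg
Spsb2: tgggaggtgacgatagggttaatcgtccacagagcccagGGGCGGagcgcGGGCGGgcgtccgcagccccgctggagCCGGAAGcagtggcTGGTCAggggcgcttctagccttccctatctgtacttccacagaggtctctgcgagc
The capitals mark an Ets match (CCGGAAG) and an Nfy match (CCAATC) in Idh3b, and an Atf and Creb match (TGACGTCA) in Taf11. In Sgk1 they mark 4 Sp and Klf matches (GGGCGG) and 1 Yy1 match (AAGATGG). Zfp639 holds 1 Sp and Klf match, 1 Stat match (TTCNNNGAA) and 1 match to the Ctcf core (AGGGGGCG). The motif TGACCA, searched for Bcl11 factors, stands once in Tmem63a and once in Spsb2, and Spsb2 also holds 1 Ets and 2 Sp and Klf matches. Both strands were searched, and the Mov10 and Mrpl11 stretches hold none of the 16 motifs. The Mov10, Sgk1 and Zfp639 members are listed for Foxp3 in the Bcl11b-KO comparison, as described next.

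Some of these regions are listed for Foxp3 in another comparison. In the comparison of Bcl11b-KO with WT Foxp3, 20 of the 829 regions (2.41%) stood in the common list, and so were listed for WT Foxp3 there, although the Foxp3 comparison lists them as specific to Bcl11b. Across all 22081 regions, 47.8% stood in that common list. A further 22 members (2.65%) were listed as specific to Bcl11b-KO Foxp3, against 10.5% of all regions, and 8 of these 22 were kept in KIKO cells. The shares of all regions include regions that the Foxp3 comparison lists for Foxp3, which the rule leaves out. Of the 2557 Treg and Tn regions common to Bcl11b and Foxp3, 60.0% stood in the common list and 1.68% were KO-specific. For the 1666 Treg-specific regions given to Bcl11b alone, the shares were 0.42% and 0.96%. None of the 829 was WT-specific, and 787 (94.9%) were in no list of that comparison. All 42 members listed there were among the 89 members at least 276 bp wide. The results that follow are given with all 829 members. Values without these 42 stand beside the share kept in KIKO cells, the gene-end and promoter-window comparisons and the Ets motif.

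The widest of the 42 were Sgk1 (632 bp, chr10:21994188-21994819, lost, common), Pitpna (533 bp, chr11:75588096-75588628, kept, common) and Chpf (525 bp, chr1:75477114-75477638, kept, KO-specific). Pitpna encodes a phosphatidylinositol transfer protein and Chpf a chondroitin-polymerizing factor. Next came Card19 (464 bp, lost, KO-specific), C030006K11Rik (440 bp, kept, common) and Wls, the carrier of Wnt ligands (426 bp, lost, KO-specific). Soat1, which esterifies cholesterol (kept, KO-specific), and S100a9, a calcium-binding alarmin (kept, common), had members of 417 bp each, the S100a9 one lying 14.6 kb from the gene. The 8 are thus divided between kept and lost and between the common and KO-specific lists.

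The 829 regions are 18.5% of the 4493 regions common to Treg and Tn cells. By the Foxp3 comparison, 2557 of those (56.9%) were common to Bcl11b and Foxp3, 351 (7.81%) were listed as specific to Foxp3 and 756 (16.8%) stood in no list. The Tn comparison lists the 351 and the 756 for Treg Bcl11b, and the Foxp3 comparison, matched by identical coordinates, does not. The 2 comparisons thus differ on Treg Bcl11b at these regions, and the reason is not given in the sources used here. Of all Treg regions in the Tn comparison, 68.9% were common, and in the Foxp3 comparison 34.5% of the Bcl11b regions were specific to Bcl11b. Of the 2497 regions specific to Bcl11b there, 829 (33.2%) were common with Tn, 1666 (66.7%) were specific to Treg and 2 were specific to Tn. The 2 sets most like the members are therefore the 2557 regions that Treg and Tn share with Foxp3 present and the 1666 Treg-specific regions without Foxp3.

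Most members had the smallest width the lists hold. Of 829, 694 (83.7%) were exactly 198 bp wide, the commonest width of Treg Bcl11b regions, 57 were 199 to 276 bp, and 78 (9.41%) were wider, up to 632 bp. The commonest widths of the other sets, 226 bp for Tn Bcl11b, 252 bp for KIKO Bcl11b and 276 bp for Bcl11b-KO Foxp3, were held by 7, 6 and 11 members, and none had the 220 bp of WT Foxp3. Among the Foxp3-shared regions of Treg and Tn, 262 of 2557 (10.2%) were 198 bp and 72.7% were wider than 276 bp, and among Treg-specific regions without Foxp3, 1642 of 1666 (98.6%) were 198 bp. Width comes with the region calls that chose the members, so it is a description with no test. What makes a region of exactly the Treg width common with Tn is not given in the sources used here.

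**Figure D1:**
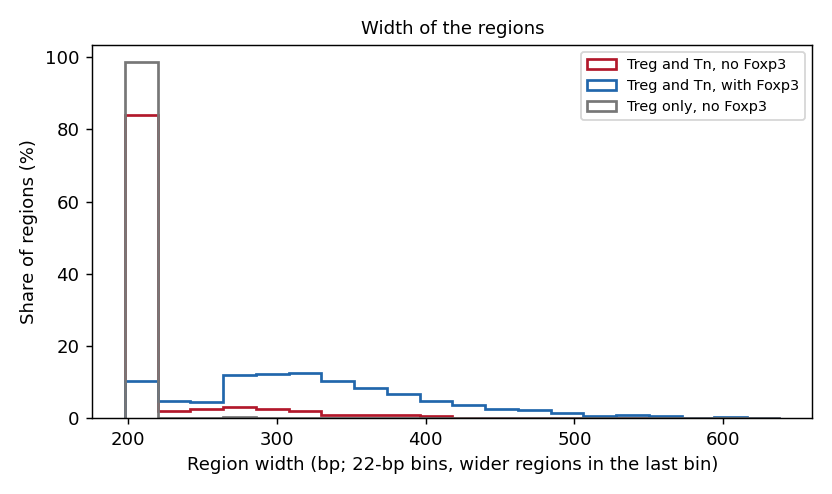
Width of Bcl11b regions in bp (22-bp bins, wider regions in the last bin) against the share of regions in percent, for the 829 regions of Treg and Tn without Foxp3, the 2557 of Treg and Tn with Foxp3 and the 1666 of Treg only without Foxp3. Of the 829 regions, 83.7% are 198 bp wide, against 10.2% of the regions with Foxp3.

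Of the 829 regions, 279 were kept in KIKO cells (33.7%, interval 30.5 to 36.9) and 550 were lost (66.3%, interval 63.1 to 69.5). All 829 were on the WT side of the KIKO comparison, where 37.7% of all regions (2127 of 5646) were kept. The share of the members is close to that background. It was 33.3% (262 of 787) without the 42 regions listed for Foxp3 in the Bcl11b-KO comparison. The WT Bcl11b set enters both the rule and this comparison, so the share is a description with no test. Fewer regions were listed for KIKO cells in general. With doubly listed regions counted, 67 were specific to KIKO and 3523 to WT. KIKO cells had 1 input sample and WT Treg cells had 3. A lost member is thus one absent from the KIKO list, and the part of depth or calling in this was not tested.

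The share kept differed with width. At 198 bp, 214 of 694 members (30.8%) were kept, against 538 of all 2741 WT-side regions (19.6%). From 199 to 276 bp, 25 of 57 members (43.9%) were kept, against 423 of 710 (59.6%). Above 276 bp, 40 of 78 members (51.3%) were kept, against 1166 of 2195 (53.1%). Members at the smallest width thus stood above the WT-side share, those of middle width below it, and the widest near it. The WT-side regions include the members. At 198 bp, 1642 of the 2741 were Treg-specific regions without Foxp3. The share kept among Foxp3-shared regions of Treg and Tn is not given here, so the higher share cannot be read as particular to the members.

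**Figure D2:**
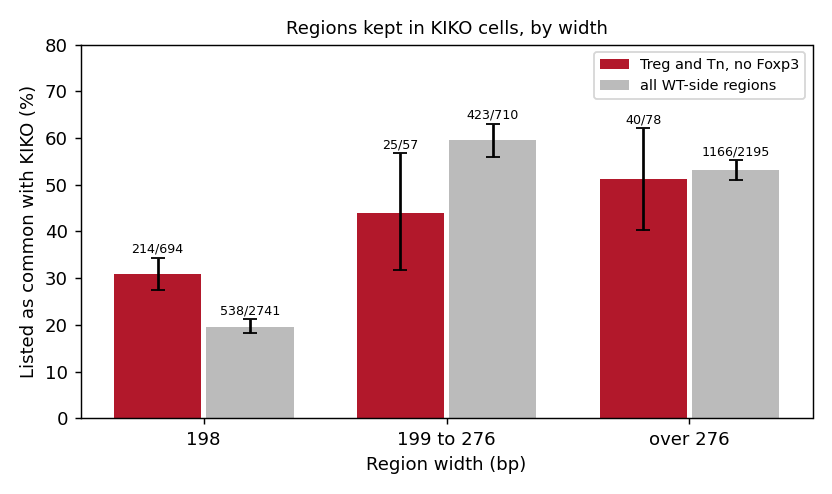
Share of regions listed as common with KIKO cells (percent) by region width (bp), for Bcl11b regions of Treg and Tn without Foxp3 and for all WT-side regions of the KIKO comparison, with Wilson 95% intervals and counts above the bars. At 198 bp, 30.8% of the members and 19.6% of all WT-side regions are kept.

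The widest kept members lay at Pitpna, Chpf, C030006K11Rik, Soat1 and S100a9, named above, and at Eml3, Cd244a and Mov10. The Eml3 member (407 bp, chr19:8929679-8930085) overlaps a promoter window of this microtubule-associated gene, and the Cd244a member (378 bp, chr1:171564255-171564632) lies in the gene of a SLAM-family receptor. The Mov10 member (376 bp, chr3:104818002-104818377) is KO-specific in the Bcl11b-KO comparison. The widest lost members lay at Sgk1, Card19 and Wls, named above, and at Inpp4a, Ubxn11, Limd1, Zfp639 and Fgr. Inpp4a, a phosphoinositide phosphatase gene, has its member (405 bp) 13.1 kb away, and Fgr, a Src-family kinase gene, holds one of 383 bp at chr4:132976742-132977124. The Ubxn11, Limd1 and Zfp639 members were 396, 386 and 386 bp wide. The widest kept and lost members overlap in width, between 376 and 533 bp for the kept ones and between 383 and 632 bp for the lost ones.

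Members lay near gene ends less often than Foxp3-shared regions and more often than Treg-specific regions. The centre was within 1 kb of either end of a protein-coding gene for 190 of 829 members (22.9%), 1567 of 2557 Foxp3-shared regions (61.3%) and 148 of 1666 Treg-specific regions without Foxp3 (8.88%). Against Foxp3-shared regions the odds ratio was 0.188 (95% interval 0.156 to 0.226, adjusted p = 4.9e-84, Fisher's exact test). Against Treg-specific regions it was 3.05 (2.4 to 3.88, adjusted p = 5.8e-20, Fisher's exact test). Without the 42 regions listed in the Bcl11b-KO comparison the odds ratios were 0.172 and 2.78.

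Width moves with this result. Among members, the share near a gene end was 16.9% at 198 bp, 42.1% from 199 to 276 bp and 62.8% above 276 bp. At 198 bp the difference from Foxp3-shared regions held (16.9% against 45.8%, odds ratio 0.24, adjusted p = 4.7e-18, Fisher's exact test). Above 276 bp it was not detected (62.8% against 64.4%, odds ratio 0.934, interval 0.572 to 1.55, adjusted p = 0.89, Fisher's exact test). The difference from Treg-specific regions held at 198 bp (16.9% against 8.65%, adjusted p = 1.2e-07) and above 276 bp (62.8% against 25.0%, adjusted p = 0.026, both Fisher's exact tests). Above 276 bp it rested on 20 Treg-specific regions, with an odds ratio of 4.98 (interval 1.52 to 19.4).

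Promoter windows gave the same order. They were overlapped by 79 of 812 members (9.73%), 1261 of 2493 Foxp3-shared regions (50.6%) and 30 of 1614 Treg-specific regions (1.86%), with chromosome 18 left out because the promoter table used here does not cover it. The odds ratio was 0.105 (0.0814 to 0.135, adjusted p = 1.2e-106, Fisher's exact test) against Foxp3-shared regions and 5.69 (3.65 to 9.05, adjusted p = 1e-16, Fisher's exact test) against Treg-specific regions. Without the 42 regions listed in the Bcl11b-KO comparison they were 0.0915 and 4.94. Both differences held at 198 bp (5.01% against 23.4%, adjusted p = 2.9e-14, and 5.01% against 1.7%, adjusted p = 0.00014) and neither passed the threshold above 276 bp (42.9% against 56.2%, adjusted p = 0.094, and 42.9% against 15.0%, adjusted p = 0.12, all Fisher's exact tests). The Treg-specific share above 276 bp is of 20 regions, and its odds ratio interval was 1.08 to 24.2.

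Away from gene ends, most members lay inside genes. Of 829, 398 (48.0%) were inside a protein-coding gene and 241 (29.1%) outside, all of them more than 1 kb from any protein-coding gene end. In all, 537 member centres (64.8%) were inside a protein-coding gene, against 60.4% of Foxp3-shared and 60.2% of Treg-specific regions. Positions relative to exons, introns or untranslated regions were not analysed here.

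**Figure D3:**
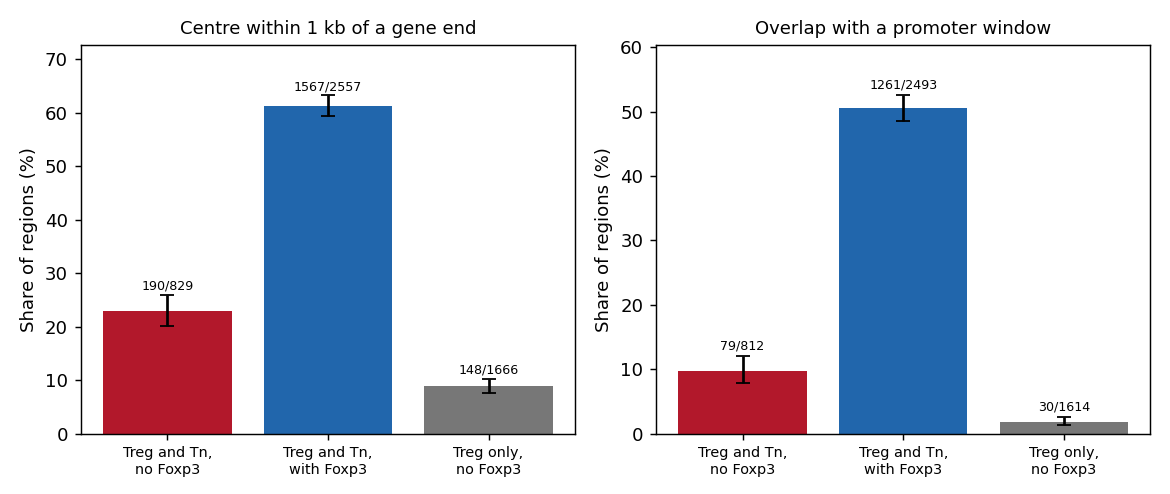
Share of Bcl11b regions (percent) with the centre within 1 kb of a protein-coding gene end (left) and overlapping a promoter window (right), for regions of Treg and Tn without Foxp3, of Treg and Tn with Foxp3, and of Treg only without Foxp3, with Wilson 95% intervals and counts above the bars. The regions of Treg and Tn without Foxp3 stand at 22.9% and 9.73%, between the other sets in both panels.

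No difference in position was detected between kept and lost members. Near a gene end were 59 of 279 kept (21.1%) and 131 of 550 lost members (23.8%), an odds ratio of 0.858 (0.594 to 1.23, adjusted p = 0.53, Fisher's exact test). A promoter window was overlapped by 33 of 273 kept (12.1%) and 46 of 539 lost members (8.53%), an odds ratio of 1.47 (0.888 to 2.42, adjusted p = 0.24, Fisher's exact test). Without the 42 regions the odds ratios were 0.814 and 1.33. The intervals with all members still allow a difference of either sign.

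Promoter windows overlapped by members were compared with the 1260 overlapped by Foxp3-shared regions, for 16 short motifs on both strands. No window was overlapped by both sets, and the median GC content was 62.7% in the 79 member windows, 61.3% in the Foxp3-shared windows and 52.7% in all 32851 windows. The Ets motif CCGGAAG was the only one past the threshold. It stood in 18 of 79 member windows (22.8%), 36.7% of Foxp3-shared windows and 8.86% of all windows, with an odds ratio of 0.508 (0.279 to 0.884, adjusted p = 0.049, Fisher's exact test). Without the regions listed for Foxp3 in the Bcl11b-KO comparison the call was lost (odds ratio 0.597, adjusted p = 0.24), as it was in regions of 198 bp (0.406, adjusted p = 0.25) and above 276 bp (0.644, adjusted p = 0.5, all Fisher's exact tests).

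The other motifs did not pass the threshold. The E-box CAGCTG stood in 22.8% of member windows, 12.4% of Foxp3-shared windows and 16.3% of all windows (adjusted p = 0.052, Fisher's exact test), and the Nrf1 motif GCGCATGC in 11.4%, 5.32% and 2.71% in the same order (adjusted p = 0.12). TGACCA, searched for Bcl11 factors, stood in 15.2%, 9.84% and 13.6% (adjusted p = 0.24), and the Runx motif TGTGGT in 7.59%, 13.2% and 16.8% (adjusted p = 0.26, both Fisher's exact tests). Sp and Klf GGGCGG was the most frequent, in 57.0%, 63.4% and 35.7%, and the Ctcf core AGGGGGCG stood in 19.0%, 12.5% and 6.07%. The forkhead motif TGTTTAC stood in 0 of 79 member windows, 2.94% of Foxp3-shared windows and 3.65% of all windows (adjusted p = 0.26, Fisher's exact test). A match is a description of these windows, and no match says only that the letters are not in them.

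Close to an equal number of members lay within and beyond 10 kb of a Foxp3 region. The median distance from the centre to the nearest other WT Foxp3 region was 11.3 kb for members, 7.61 kb for Foxp3-shared regions and 15.4 kb for Treg-specific regions. A Foxp3 region lay within 1 kb of 98 members (11.8%), within 10 kb of 384 (46.3%) and within 100 kb of 705 (85.0%). Kept members had a median of 13.5 kb and lost members one of 10.3 kb, with 40.1% of kept and 49.5% of lost members within 10 kb. These distances are descriptions, since the Foxp3 lists chose the members.

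**Figure D4:**
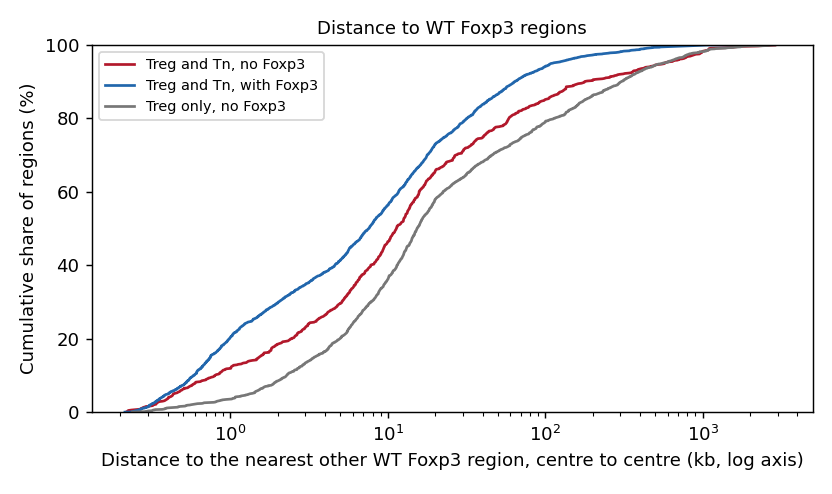
Cumulative share of regions (percent) by distance to the nearest other WT Foxp3 region, centre to centre (kb, log axis), for Bcl11b regions of Treg and Tn without Foxp3, of Treg and Tn with Foxp3 and of Treg only without Foxp3. At 10 kb the shares are 46.3%, 56.3% and 36.1%.

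A few members almost touch a Foxp3 region. The smallest gap was 10 bp, at Zfp322a, and the Satb1 member at chr17:51879561-51879758 had a gap of 13 bp. Cdc37, a kinase cochaperone gene, had a gap of 14 bp, and at Ep300, an acetyltransferase gene, the gap was 101 bp. Zfp322a and Cdc37 were chosen after their values were seen.

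The members fell at 796 genes. Of 829, 818 were assigned to the nearest protein-coding gene within 100 kb, and these genes are 3.63% of the 21900 annotated. Of the 796, 509 had a WT Foxp3 region assigned, 125 had a Foxp3-shared region of Treg and Tn, and 460 had no other Treg Bcl11b region. The 20 members in the common list of the Bcl11b-KO comparison count as WT Foxp3 regions here. For some of the 509 genes the WT Foxp3 region can thus be the member itself. Across all 21900 genes, 2318 had a Foxp3-shared region of Treg and Tn. The matching counts over all genes for the 509 and the 460 are not given here, so these are descriptions only. No gene had more than 2 members: 22 genes had 2, of which 6 had 1 kept and 1 lost, 2 had both kept and 14 had both lost. Members thus lay singly, with 32 of 829 (3.86%) within 10 kb of another.

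None of Foxp3, Il2ra, Ctla4, Ikzf2, Ikzf4, Il10, Bcl11b and Gata3 had a member. Across all genes 3.63% had a member, so none among these 8 is near that share. WT Foxp3 regions were listed at all 8, from 1 at Foxp3 itself to 8 at Il2ra, the gene of the high-affinity IL-2 receptor. The share of all genes with a WT Foxp3 region is not given here. Satb1, the chromatin organizer that also acts in Treg development, had 2 members, both lost. They lay at chr17:51879561-51879758 and chr17:51887803-51888000, at 46.4 and 54.6 kb from the gene, and 5 Bcl11b-KO Foxp3 and 13 WT Foxp3 regions were assigned to Satb1. Runx1, the Runt-family factor of T-cell development, had 2 lost members, at chr16:92698569-92698766 inside the gene and at chr16:92840014-92840211, 14.0 kb away, beside 7 Bcl11b-KO Foxp3 and 6 WT Foxp3 regions.

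Across all 21900 protein-coding genes, 3.63% had a member, 2318 genes had a Foxp3-shared region and 1507 a Treg-specific region without Foxp3, and the counts for each gene list are to be read against these. The shares are descriptions of short lists and were not tested. Of the 34 genes of the naive and T lineage list, 4 (11.8%) had a member: Satb1, Runx1, Id3 and S1pr1. Id3, an inhibitor of E proteins, had a lost member at chr4:136147929-136148126, and S1pr1, the receptor that lets T cells leave lymph nodes, a kept one at chr3:115722033-115722230. Foxp3-shared regions were at 18 of the 34 genes and Treg-specific regions without Foxp3 at 3. Of the 29 Treg signature genes, 1 (3.45%, near the share of all genes) had a member, a lost one in Tigit, an inhibitory receptor gene (chr16:43645355-43645552), and 9 had a Foxp3-shared region. No gene of the 22 T helper regulators and cytokines had a member.

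T-cell receptor (TCR) signalling genes had members at 4 of 35 (11.4%, against 3.63% of all genes). Foxp3-shared regions were at 23 of the 35 and Treg-specific regions without Foxp3 at 8. Themis, which tunes TCR signals in thymocyte selection, had a lost member at chr10:28678424-28678621 and a kept one at chr10:28682418-28682615, both inside the gene. Grap2, a TCR adaptor gene, Nfkb1, an NF-kB subunit gene, and Egr3, a TCR-induced zinc-finger gene, each had a lost member. Stat5b, which carries IL-2 signals, had a lost member inside the gene at chr11:100809880-100810077 and was the only one of 19 IL-2 and STAT5 genes (5.26%) with a member. At Stat5b, 11 WT Foxp3 and 7 Treg Bcl11b regions were listed. Of 22 chemokine receptor and homing genes, 3 (13.6%) had members, the lost ones of Cxcr6 and S1pr4 and the kept one of S1pr1. Foxp3-shared regions were at 11 of these 22 genes and Treg-specific regions without Foxp3 at 1.

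Chromatin genes had a member at 5 of 33 (15.2%), a Foxp3-shared region at 6 and a Treg-specific region without Foxp3 at 7. The kept members were at Cbx5, a heterochromatin protein gene, Eed, a Polycomb subunit gene, and Ep300, at chr15:81586310-81586507. The lost ones were at Mbd3, a subunit gene of NuRD, and Ctcf, the insulator-binding factor gene.

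Of the housekeeping lists, splicing (2.5%) and translation (4.65%) stood near the 3.63% of all genes, on 1 and 2 genes. The other 3 lists stood above it. Of 37 mitochondrial genes, 4 (10.8%) had a member, kept at Uqcrc1 (respiratory complex III) and Tomm20 (protein import), and lost at Sdha (complex II) and Hspe1 (a chaperonin partner). Of 42 cell cycle and repair genes, 4 (9.52%) had a member, kept at Rb1, the retinoblastoma gene, and lost at Msh6 (mismatch repair), Mcm3 (replicative helicase) and Cdk1 (mitotic kinase). Of 39 ubiquitin and proteasome genes, 3 (7.69%) had one, kept at Psma1 and lost at Psmc6 and Psmd1. Members were at 2 of 43 translation genes (4.65%), lost at Eif2s1 and Pabpc1, and at 1 of 40 splicing genes (2.5%), kept at Acin1. In the order given, Foxp3-shared regions were at 10, 8, 9, 16 and 10 genes of these lists. Treg-specific regions without Foxp3 were at 3, 6, 2, 5 and 6. Among markers of other cells, 2 of 10 B cell genes (20%) had a member, kept at Fcer2a and lost at Ebf1, and none of 10 myeloid or 14 neural genes did.

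Of the 22 genes with 2 members, 8 are described, the first by symbol among these ties with predicted genes passed over. Of the 8, 3 had no WT Foxp3 region assigned. Erbb3, a receptor tyrosine kinase gene, had kept members at chr10:128590061-128590258 and chr10:128590372-128590658. Gzmf, a granzyme gene, had lost members at chr14:56204138-56204335 and chr14:56209798-56209995, and Gabra5, a GABA receptor subunit gene, had lost members at chr7:57561102-57561299 and chr7:57565686-57565883. Gnas, which encodes a G-protein alpha subunit, had 2 lost members at chr2:174330640-174330865 and chr2:174331173-174331370, and 3 WT Foxp3 regions. Arhgap27 had 2 lost members and 3 WT Foxp3 regions, which include its member listed as common in the Bcl11b-KO comparison. Medag, Obi1 and Odr4 had 1 kept member, 1 lost member and 1 WT Foxp3 region each. Of these 8 genes, the members of 4 were all lost, those of 1 all kept and those of 3 divided.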

How the data were processed

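Bcl11b and Foxp3 ChIP-seq came from sorted mouse CD4+ T cells. The authors deposited 12 lists of regions (chromosome, start, end) with no count, signal, score or p-value. The submitters' processing notes name mm10 and, without roles, HOMER 4.10.1, deepTools, HISAT2 2.1.0, SAMtools 1.3, Trim Galore 0.4.2, FastQC and cutadapt 1.12. Not given in the sources used here are the calling threshold, the rule for common and specific, and any pooling. Per the labels, the third WT Treg Bcl11b replicate is tied to no list and the second WT Foxp3 replicate not to the Bcl11b and Foxp3 common one.

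Starts were read as 0-based and printed 1-based. Repeated rows (127) were dropped, and 25 regions in 2 classes of a comparison were left out of that comparison. Regions were assigned to the protein-coding gene nearest the centre, within 100 kb (RefSeq, GRCm38.p6, 21900 genes), and promoter windows covered 17492 of these. scipy 1.17.1 gave Fisher's exact tests, conditional odds ratios and Wilson intervals, tested on simulated data. The named genes are 9 fixed Treg and T-cell genes, 8 of the 22 genes with 2 members (the most at a gene; ties by symbol, predicted genes passed over), up to 6 per list, those of the 8 widest kept and lost members, and up to 8 listed in the Bcl11b-KO comparison. Members and lists were chosen with earlier results of these data known. Motifs were searched in promoter windows because no genome was used here, and the width classes and the values without members listed in the Bcl11b-KO comparison include alternatives chosen after seeing the data.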

Additional observations from a re-analysis of the deposited data

How the results depend on the processing

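Of 48 values recomputed under an alternative, 37 were labelled the same, which for a tested value means the same direction and side of the threshold. The 48 and the 37 also include counts and shares that were not tested. Among these, the share kept over all members could not change, since all 829 were on the WT side. The members were 829 under centre matching and with doubly listed regions kept, and 826 on autosomes. Above 276 bp, the share kept was 51.3%, the gene-end odds ratio against Foxp3-shared regions 0.934, and the promoter-window odds ratios 0.585 against Foxp3-shared and 4.2 against Treg-specific regions, none of these 3 past the threshold, with fewer regions tested. Kept against lost members reversed without a call, with gene-end odds ratios of 1.01 at 500 bp and 1.21 above 276 bp and a promoter-window odds ratio of 0.68 at 198 bp. Gene bodies alone gave 525 genes in place of 796. The Ets call was lost under each of 3 alternatives. The commonest width differed between the sets, from 198 bp for Treg Bcl11b to 276 bp for Bcl11b-KO Foxp3. The values above 276 bp thus do not stand for a stricter threshold, and no score was used here. Width, depth and calling cannot be told apart.

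No paired analysis was possible because the lists are per group and hold no value per replicate, and none was left out. The planned motif search in region sequence was not run, as no genome was used here, and neither was its alternative window.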

Other observations

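By chromosome, members were most numerous on chromosome 2, with 73 of 829, and 3 were on chromosome X. The shares of all regions by chromosome are not given here, so these counts cannot be read as a trait of the members.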
